A study of Mus musculus with 5 samples.

Results

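The receptors and Smad proteins of transforming growth factor β (TGF-β) and bone morphogenetic protein (BMP) signalling were examined as targets of Argonaute (Ago) in developing mouse liver. The 10 genes were Tgfbr1, Tgfbr2, Acvr1b, Bmpr1a, Bmpr2, Smad2, Smad3, Smad5, Smad4 and Smad7, chosen by symbol in the gene column of the tables of miRNA-target interactions. All 10 were found, among 14348 genes with a cluster in the 3′UTR, coding sequence (CDS) or 5′UTR in at least 1 library. Such clusters are called mRNA clusters here, and only they were used for levels unless introns are named.

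TGF-β family ligands bind a pair of serine/threonine kinase receptors, in which a type II receptor phosphorylates a type I receptor, and the type I receptor then phosphorylates receptor-regulated Smads. Smad2 and Smad3 act downstream of TGF-β and activin, Smad5 downstream of BMPs, and both branches share Smad4, while Smad7 is induced by the pathway and inhibits it at the receptors. In liver, TGF-β limits hepatocyte growth and drives fibrosis, and BMP signalling controls hepcidin and thereby iron.

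Ago HITS-CLIP crosslinks Ago to RNA with ultraviolet light, and the RNA recovered with Ago antibodies is sequenced. Livers of C57BL/6 mice (substrain C57BL/6J in the methods) were taken at e12.5, e15.5 and e18.5, at postnatal day 7 (P7) and in adults, with 1 deposited sample per stage. The labels name Ago2 antibodies for the embryonic livers and Ago2 with Ago1 antibodies for P7 and adult livers, so antibody and age after birth cannot be told apart. The genotype given was the strain alone, and whole liver was used. The methods speak of biological replicates of the Ago2 experiment, and a supplementary table names a second e18.5 library, which is not analysed here as a sample, since each stage has 1 sample in the labels and 1 table. Each embryonic table holds 2 lists of clusters, and no source used here says whether these are replicates, so the lists were combined, no test between stages was run and each stage is treated as a single library. The tables list clusters of at least 5 reads that hold a seed match of a miRNA. A cluster below that number, or with no match, would not be listed, and a gene without a listed cluster is described as such and not as unbound.

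Between 76948 and 208193 clusters per library were listed, with 13008703 to 44867326 summed cluster reads. Of these reads, 50.4% at e18.5 to 79.9% in adult liver lay in clusters annotated to miRNA genes, and 13.5% in adult liver to 30.03% at e18.5 in mRNA clusters. The levels below are reads per 1000000 summed cluster reads (RPM), and intervals are exact 95% intervals that cover counting error only, since PCR reads without molecular identifiers are not independent molecules. Where 5 values follow each other, they run in order of age from e12.5 to adult. The defining markers of hepatocytes were listed at every stage (Alb, at 342 to 6218 RPM), except that Afp had no cluster in adult liver. The summed reads of 7 erythroid markers, all listed at e12.5, were 36148 RPM at e12.5 and 889 in the adult, where the red cell anion exchanger Slc4a1 had no cluster. Those of 4 endothelial markers were 11.7 and 151, those of 5 stellate and mesenchymal markers 36.1 and 74.6 (Lrat and Dcn higher, Col1a1 and Des lower), and those of 5 immune markers 12.3 and 75.1.

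Few of the sites in these transcripts recurred between stages, and no share over the sites of all genes was computed beside them. Recurring sites of the receptors are shown first, except those of miR-122, which are described further on without sequence, as are the recurring sites of Smad7, Smad4 and Smad5. An 8mer match of the let-7 family stood in the 3′UTR of Tgfbr1, the type I receptor of TGF-β, in all 5 libraries. Bmpr2, the type II receptor of BMPs, had a pair of adjacent miR-27 matches in its CDS. The sequences are from GRCm38, 5′ to 3′ on the mRNA strand, with the bases that pair with the seed and a closing A in capitals.
Tgfbr1 let-7 8mer, 3′UTR, chr4:47410830-47410853 (+): gaggctggttgttCTACCTCActg
Bmpr2 miR-27 7mer-A1, CDS, chr1:59852324-59852346 (+): gtgctagaaggagCTGTGAAcct
Bmpr2 miR-27 7mer-m8, CDS, chr1:59852339-59852361 (+): gtgaacctgagggACTGTGAgtc
The 2 miR-27 matches lie in exon 9 of 13, at bases 1171 and 1187 of the CDS, and have conservation scores of 0.994 and 1 on the authors' scale from 0 to 1. The let-7 match begins 66 bases after the stop codon of Tgfbr1, in exon 9 of 9, with a conservation score of 1. Another 6 sites of Tgfbr1, Bmpr2 and Acvr1b that recurred in 2 libraries, chosen after their values were seen, are shown next. Their conservation scores, in the order shown, are 1, 0.018, 0.011, 0.994, 0.904 and 1.
Tgfbr1 miR-130 and miR-301 7mer-A1, 3′UTR, chr4:47410944-47410966 (+): ggggtcctttctgTGCACTAtgg
Tgfbr1 miR-15/16 7mer-m8, 3′UTR, chr4:47412235-47412257 (+): tgggtcttctcacTGCTGCTgga
Tgfbr1 miR-30 8mer, 3′UTR, chr4:47413062-47413085 (+): aattgagtttacaTGTTTACAgct
Tgfbr1 miR-27 7mer-A1, 3′UTR, chr4:47414740-47414762 (+): ggttttgagaaacCTGTGAAgag
Bmpr2 miR-26 8mer, 3′UTR, chr1:59876027-59876050 (+): agaaaattgactgTACTTGAAttt
Acvr1b miR-17 family 7mer-A1, 3′UTR, chr15:101213552-101213574 (+): atagccacttagaCACTTTAcct
One mature miRNA of each of these families, from RefSeq (GRCm38.p6), is shown with its seed, bases 2 to 8, in capitals. Within each of the 7 families shown, all members with a sequence share 1 seed.
let-7a-5p: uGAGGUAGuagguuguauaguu
miR-27b-3p: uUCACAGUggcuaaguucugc
miR-130a-3p: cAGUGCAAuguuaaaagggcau
miR-16-5p: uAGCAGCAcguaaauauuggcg
miR-30a-5p: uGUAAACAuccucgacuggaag
miR-26a-5p: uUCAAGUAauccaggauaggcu
miR-17-5p: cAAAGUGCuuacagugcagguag

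All 10 genes had mRNA clusters in all 5 libraries, against 45.5% of the genes listed in any library. Together they held 121, 59, 55, 133 and 72 mRNA clusters from e12.5 to adult, and 145.9, 167.1, 277.8, 173.3 and 80.6 RPM. Joined over the libraries where they overlapped, the clusters formed 317 loci, and 240 of these were listed in 1 library only. A locus was listed in at least 3 libraries in 28 cases, or 8.83%, close to the 11.5% of all mRNA loci. The 6 loci listed at every stage belonged to Tgfbr1 (1), Smad2 (1), Smad4 (2) and Smad7 (2). Smad5 had 39 loci and none in 3 libraries.

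The type I receptors Tgfbr1 and Bmpr1a were not lower in adult liver than at e12.5, whereas the activin type I receptor Acvr1b had less in the adult library. Tgfbr1 had 9.49, 25.1, 37.5, 33.1 and 16.1 RPM. Bmpr1a, a type I receptor of BMPs, had 4.52, 6.11, 6.84, 13.2 and 8.16. Acvr1b had 15.4, 5.33, 25.6, 10.7 and 4.66.
For Tgfbr1 the lowest library was e12.5 and the highest e18.5, whose intervals did not overlap. The log2 change from e12.5 to adult was 0.76 for Tgfbr1 (95% interval 0.56 to 0.96) and 0.85 for Bmpr1a (0.56 to 1.14), both under the 2-fold rule used as a call. The sign turned for Tgfbr1 with clusters of at least 50 reads (-0.38) or CDS clusters alone (-0.32), and for Bmpr1a with the first list of the embryonic table alone (-0.42). With the second list alone Bmpr1a was at 2.58, past the 2-fold rule. Acvr1b was lower by 3.31-fold (log2 change -1.73, interval -2.02 to -1.44).

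Of the type II receptors, Bmpr2 had the narrowest range of all 10 genes and Tgfbr2 was lowest in adult liver. Bmpr2 had 18.6, 15.4, 28.0, 25.6 and 19.97 RPM from e12.5 to adult, a range of 1.82-fold. Tgfbr2, which binds TGF-β and recruits Tgfbr1, had 11.99, 17.7, 28.1, 14.1 and 4.22.
Bmpr2 in the adult and e12.5 libraries did not differ beyond counting error on this scale (log2 change 0.10, interval -0.06 to 0.26), but the value rested on the scaling, with 0.40 by library totals, 0.89 by reads in mRNA clusters and 0.96 with all genes centred on their median. By reads in mRNA clusters the range of Bmpr2 was 2.86-fold, still the narrowest of the 10. Tgfbr2 was lower in adult by 2.84-fold (-1.51, interval -1.82 to -1.20).

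The signal-transducing Smads were all lowest or near their lowest in the adult library. Smad2 had 9.67, 20.6, 14.2, 8.49 and 0.764 RPM. Smad3 had 13.1, 5.87, 15.3, 5.70 and 0.442.
In adult liver each of the 2 genes had a single mRNA cluster, of 19 reads in Smad2 and 11 in Smad3, both in the CDS. The BMP-branch Smad5 had 19.6, 24.8, 2.61, 17.3 and 2.97. Smad4, the shared partner, had 32.3, 28.3, 101, 17.4 and 4.26.
Smad5 was thus low in 2 libraries, e18.5 and adult, and those intervals overlapped. In adult liver Smad3 was 29.5-fold lower than at e12.5 (log2 change -4.88, interval -5.90 to -4.03) and Smad2 12.7-fold (-3.66, interval -4.41 to -3.0). For Smad2 this rests on the clusters listed under the gene: with the clusters listed as intergenic inside its annotated 3′UTR, an alternative chosen after seeing the data, adult liver had 53 reads in place of 19 (2.13 RPM) and the difference was 4.78-fold (-2.26, interval -2.70 to -1.85). Smad4 was 7.58-fold lower (-2.92, interval -3.22 to -2.64) and Smad5 6.60-fold (-2.72, interval -3.09 to -2.38). The Smad4 change depended on the region, with -5.81 in 3′UTR clusters and -0.46 in CDS clusters.

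The inhibitor Smad7 differed from these. It had 11.2, 17.9, 19.1, 27.8 and 19.01 RPM, lowest at e12.5 and highest at P7. The log2 change from e12.5 to adult was 0.76 (interval 0.58 to 0.95), like that of Tgfbr1. It was -0.32 with the first list alone, and 1.91, past the 2-fold rule, with the second list alone.

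**Figure D1:**
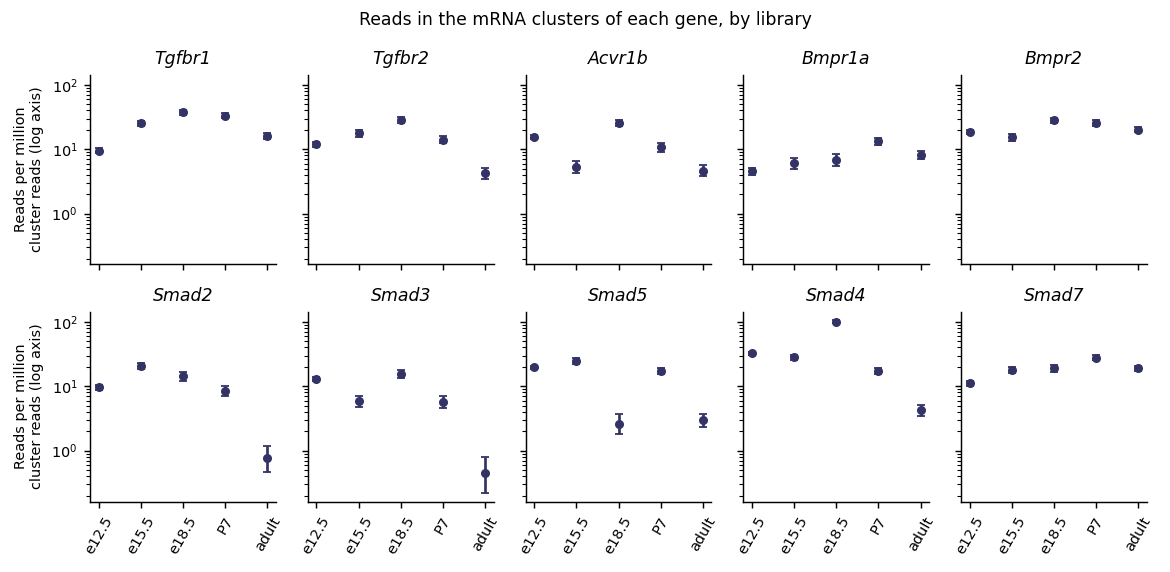
Reads in the mRNA clusters of each gene, in RPM (log axis), in the 5 libraries, with exact 95% intervals for counting error. Smad2, by the clusters listed under the gene, and Smad3 stand below 1 RPM in adult liver, and Smad4 stands highest at e18.5, at 101.

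Between e12.5 and adult, 6 of the 10 genes were at least 2-fold lower (Smad2, Smad3, Smad4, Smad5, Acvr1b and Tgfbr2), against 47.4% of the 8865 genes compared, and none was at least 2-fold higher, against 21.4%. The count of genes called lower was thus near the background. The median log2 change was -1.62 for the 10 genes and -0.86 for all genes. Scaled to the reads in mRNA clusters in place of all clusters, the median of all genes was -0.07 and the background shares became 31.5% higher and 32.8% lower. On that scale Acvr1b (-0.94) and Tgfbr2 (-0.72) lost their calls, 4 genes were lower (Smad2, Smad3, Smad4 and Smad5, log2 changes -2.87, -4.09, -2.13 and -1.93) and 3 were higher (Tgfbr1, Bmpr1a and Smad7, at 1.55, 1.64 and 1.55). Smad3 lay at the 3.41 percentile of all genes in this change and Smad2 at the 9.25 percentile, and the highest of the 10, Bmpr1a, at the 76.7 percentile. Erythroid marker reads were also lower and endothelial marker reads higher in the adult library, as given above, and their part in the result was not tested. In whole liver, fewer cells of a type and less bound RNA per cell cannot be told apart.

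Across birth, the summed reads of Smad4 and Smad5 differed in opposite directions, which for Smad4 rested on 1 cluster. Between e18.5 and P7, 4 genes were at least 2-fold lower (Smad4, Smad3, Acvr1b and Tgfbr2), against 35.1% of 9204 genes, and Smad5 was higher, against 20.9%. Smad4 was 5.78-fold lower at P7 (log2 change -2.53, interval -2.72 to -2.35), and Smad5 was 6.63-fold higher (2.73, interval 2.21 to 3.29). Tgfbr2 was at the limit of the rule (-1.0), with Bmpr1a just short of it on the other side (0.95). Scaled to the reads in mRNA clusters, Smad4 alone stayed at least 2-fold lower (-1.98), and Smad5, Bmpr1a and Smad7 were higher (3.28, 1.5 and 1.1), with backgrounds of 23.0% and 29.3%. The calls depended on the lists: all 34 Smad5 reads at e18.5 were in the second list, and with that list alone the changes were 0.46 for Smad5, 0.24 for Smad3 and 0.10 for Acvr1b, none of them called, and -1.86 for Smad4. Without their highest clusters Smad4 was at 0.97 and Tgfbr2 at -0.14. With CDS clusters alone Smad4 was at 1.26 and Smad3 at 1.52, above 0 as was Smad5 (2.56). All 7 erythroid markers were at least 2-fold lower at P7 than at e18.5 (51061 and 18241 RPM summed), and the summed reads of the immune markers were lower (220.3 and 99.6), although 3 of these 5 were at least 2-fold higher and 1 lower. All 4 endothelial markers were at least 2-fold higher at P7 (52.7 and 197 RPM summed). So were 3 of the 5 stellate and mesenchymal markers (80.2 and 169), with 0 lower. The part of these markers in the changes across birth was not tested.

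**Figure D2:**
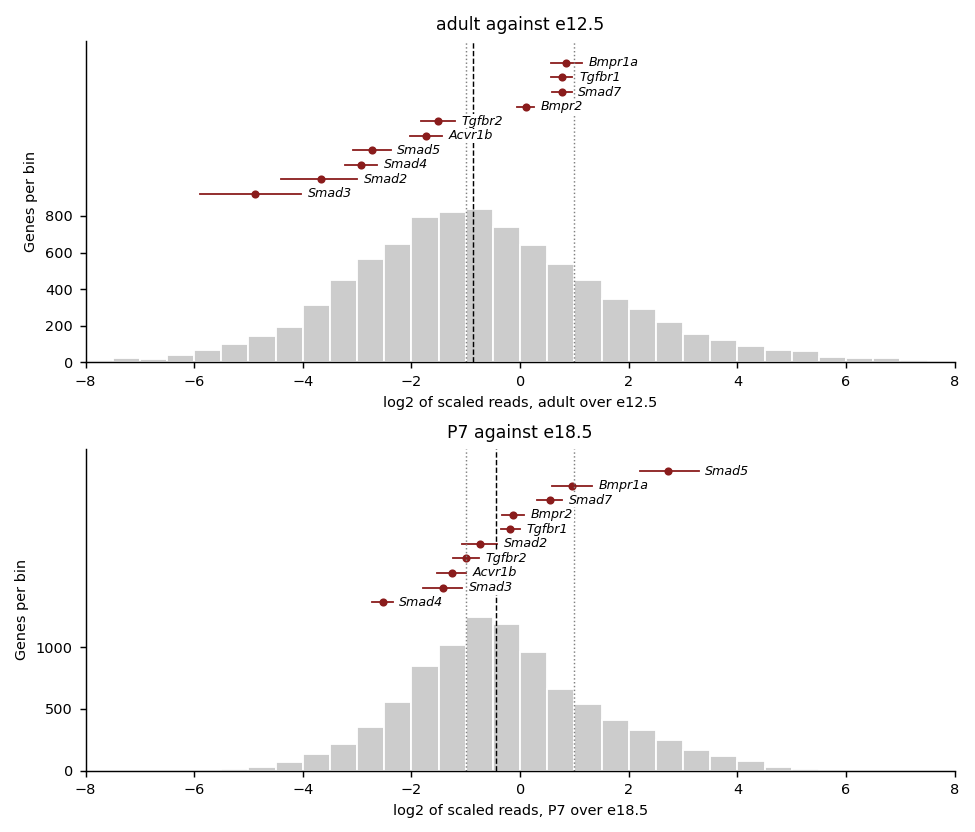
Log2 change in scaled reads of all genes listed in both libraries (grey bars, 0.5 log2 per bin, changes beyond 8 not drawn) and of the 10 genes (red points, with exact 95% intervals for counting error). The dashed line is the median of all genes and the dotted lines the 2-fold rule. The 4 signal-transducing Smads lie at the low end between e12.5 and adult, and Smad5 at the high end between e18.5 and P7.

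A single cluster carried most of the Smad4 reads at e12.5 and e18.5. Its listed sites spanned 22 bases from base 791 of the 3′UTR, and it was listed in all 5 libraries, with 826, 129, 1245, 130 and 12 reads. At e18.5, 1137 of these reads were in the first of the 2 lists that make up the embryonic table. Without this cluster Smad4 had 13.9, 20.5, 4.84, 9.52 and 3.78 RPM, so that the change from e18.5 to P7 turned to 0.97 (interval 0.54 to 1.42), while that from e12.5 to adult remained at -1.88.
No family among the abundant ones considered matched the cluster. Between 7 and 11 miRNAs were listed for it per library, 3 to 6 of them 3p strands of let-7 or miR-98. The most abundant miRNA with any match in the cluster ranked between 191 and 255 among the miRNAs of its library. These miRNAs were looked up after the reads were seen.

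Levels can be compared between genes only per length. Per kilobase of mRNA, Smad4 was highest of the 10 at e12.5, e15.5 and e18.5, with 9.02, 7.92 and 28.1 RPM per kb. Smad7 was highest at P7 and in adult liver, with 6.34 and 4.34, followed by Tgfbr1 with 5.07 and 2.47. Smad2 and Smad3 had nearly equal values in adult liver, 0.0832 and 0.0834. Among all listed genes with a known length, Smad7 lay between the 64.2 and 88.2 percentiles over the libraries, and Smad2 and Smad3 at 2.87 and 2.89 in adult liver, without the intergenic clusters of Smad2.

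In all 5 libraries, mRNA clusters of the 10 genes lay more often in the 3′UTR than those of all genes. The share in the 3′UTR was 57.02% (95% Wilson interval 48.1 to 65.5, 69 of 121 clusters), 54.2% (41.7 to 66.3), 49.1% (36.4 to 61.9), 50.4% (42.0 to 58.7) and 50% (38.7 to 61.3). For all genes it was 41.5%, 40.4%, 38.0%, 36.9% and 29.7%, below the interval of the 10 genes in every library but e18.5. The intervals treat clusters as independent, which clusters of the same gene are not, so they are no test of a difference. Tgfbr1 alone had 21 of the 67 3′UTR clusters at P7 and 13 of the 36 in adult liver. All 10 genes have annotated 3′UTRs above the median of the listed genes, with medians of 4078 and 1217 bases, and the part of this length in the shares was not tested.
The genes varied in where the clusters lay, among receptors as among Smads, and no difference between these classes was tested. Summed over the libraries, 3′UTR clusters outnumbered CDS clusters in Tgfbr1 (56 and 16), Acvr1b (33 and 13), Bmpr1a (16 and 9), Smad5 (32 and 10), Smad3 (12 and 8) and Smad4 (19 and 16). CDS clusters were more numerous in Bmpr2 (25 in the 3′UTR and 39 in the CDS), Tgfbr2 (17 and 27), Smad7 (18 and 22) and Smad2 (3 and 23). The last had few in the 3′UTR although its annotated 3′UTR is the second longest of the 10.
No cluster was listed in the Smad2 3′UTR at e18.5, P7 or in adult liver. Within the 3′UTR that GENCODE gives Smad2, clusters listed as intergenic were found at e12.5 (3), P7 (1) and adult (2), with 23, 6 and 34 reads, and levels leave these out unless they are named. They raise Smad2 in adult liver from 0.0832 to 0.232 RPM per kb. The other 9 genes had no such clusters. Per kilobase of 3′UTR, Tgfbr1 had 5.05 clusters at P7, at the 89.6 percentile of genes, and Smad4 7.99 at e12.5, at the 91.9 percentile.

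**Figure D3:**
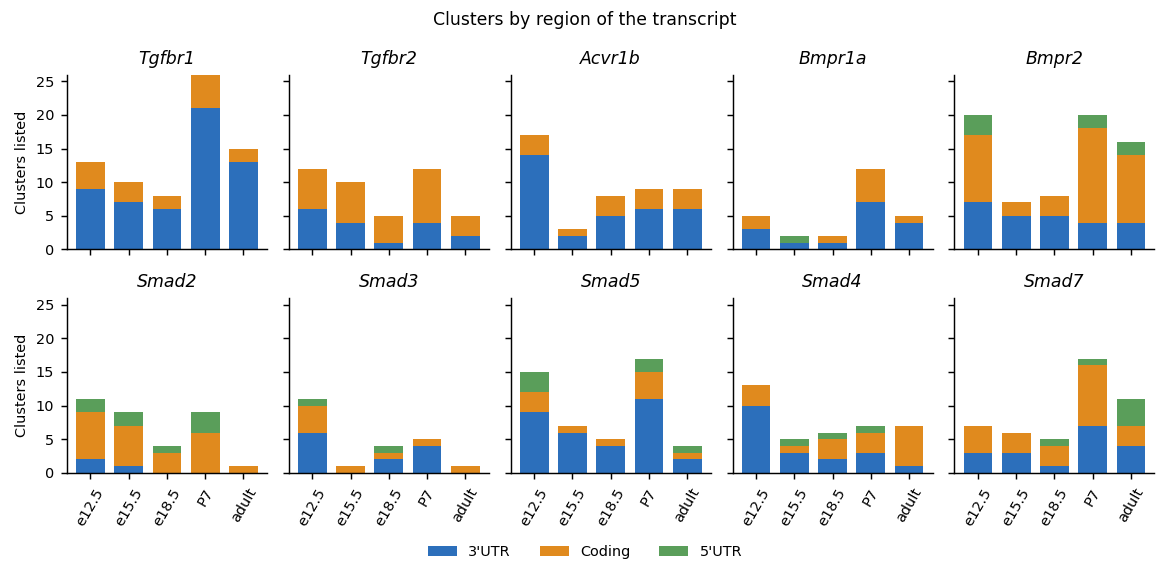
Number of clusters listed in the 3′UTR, CDS and 5′UTR of each gene in the 5 libraries; a cluster listed in more than 1 region is counted in each. Tgfbr1 had 21 clusters in the 3′UTR at P7, and Smad2 had clusters mainly in the CDS.

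Many miRNAs match a cluster, most of them rare in the library. Tgfbr1 clusters held sites of 86, 67, 40, 163 and 69 miRNAs from e12.5 to adult, of which 25, 19, 15, 31 and 27 were among the 100 most abundant of that library. Smad7 had 50, 45, 44, 130 and 82, of which 16, 21, 21, 24 and 21 were abundant. Smad3 had 46, 6, 17, 31 and 2, of which at most 2 were.
The share of 3′UTR clusters with a site of an abundant miRNA was 47.8%, 46.9%, 48.1%, 43.3% and 58.3% (in adult liver 21 of 36, interval 42.2 to 72.9). The corresponding shares of all genes, 46.8%, 51.5%, 48.1%, 45.8% and 48.9%, lay within the intervals of the 10 genes. The 6mer share of the sites in the 10 genes was 50.4%, 44.9%, 42.4%, 52.4% and 49.2%, against 52.7%, 51.4%, 51.2%, 52.3% and 52.5% of all sites. The shares of all sites lay above the intervals of the 10 genes at e15.5 and e18.5 and within them in the other 3 libraries. The 8mers were 10.9% to 15.99% of the sites against 7.94% to 9.09%. A site counts once for each miRNA that matches it, so these entries are not independent.

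Sites of at least 7 bases for the 38 miRNA families considered, counted where the family had a miRNA among the 100 most abundant, numbered 61 in the 10 genes, with a Smad2 site listed in both CDS and 5′UTR counted once. Of these, 38 were in 3′UTRs and 20 in the CDS. Each of 46 sites was listed in 1 library only, and 6 sites in at least 3. The rule on abundance also limits how often a site can recur. The same counts were not made over the sites of all genes, so they are not read as a trait of the 10. Let-7 sites of Tgfbr1 and Smad7 were the ones listed at every stage. A let-7 site in all 5 libraries was found for 60 of the 6535 genes listed in all libraries, or 0.918%.

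The let-7 cluster of Tgfbr1 had 35, 25, 110, 37 and 30 reads, and all e18.5 reads were in the first list. In Smad7 the let-7 8mer lay in the CDS, at base 868 of 1278 in the last exon, with 184, 82, 11, 127 and 174 reads and a conservation score of 1. The let-7 family made up 2.45%, 3.61%, 5.72%, 15.3% and 22.4% of the miRNA reads in order of age. The Tgfbr1 cluster was highest in the middle library, at 8.46 RPM, and the Smad7 cluster lowest there, at 0.846, so neither cluster had the order of the family.

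Smad7 had a second conserved 8mer, for miR-15/16, 69 bases after its stop codon. The cluster around it was listed in all 5 libraries (39, 43, 82, 60 and 81 reads), and the site in each but e12.5. Of the genes listed in all libraries, 7.76% had a miR-15/16 site in at least 4. The family held 4.25%, 3.94%, 10.1%, 3.95% and 14.9% of the miRNA reads.

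The liver miRNA miR-122 had sites in 3 libraries in both Tgfbr1 and Bmpr1a. In Tgfbr1 a 7mer-A1 with a conservation score of 0.997 lay 909 bases after the stop codon and was listed at e18.5, P7 and adult, with 6, 47 and 21 reads. In Bmpr1a an 8mer 2170 bases after the stop codon formed the cluster with the highest mean RPM over the libraries, with 3.16 RPM at e12.5 and 4.30 both at P7 and in adult liver, and its conservation score was 0.013. It held 52.7% of the Bmpr1a reads in adult liver and 69.95% at e12.5, where miR-122 was 1.44% of the miRNA reads against 11.2% in the adult. A miR-122 site in 3 or more libraries was found for 7.24% of the genes.

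Among the other receptors, the miR-27 pair of Bmpr2 shown above was listed between them in 4 libraries (e12.5, e18.5, P7 and adult), with 5 to 60 reads for either site, and 4.30% of genes had a miR-27 site in as many. The Tgfbr2 cluster with the highest mean RPM was in the CDS (153, 33, 198 and 38 reads from e12.5 to P7, and none listed in adult liver), with a 6mer of miR-15/16 listed at e12.5 as its only match to an abundant family. The Tgfbr2 3′UTR had a conserved miR-145 8mer, counted in adult liver, in a cluster of 37 reads there that was also listed at e12.5 and P7. Sites were counted only where their family was abundant, which for miR-145 was adult liver alone (rank 45, against 138 to 242 elsewhere). Whether the site was listed at e12.5 or P7 was therefore not tested. The 3′UTR cluster of Acvr1b with the highest mean RPM over the libraries had 74 reads at e18.5 and 38 at e12.5. It held a miR-199 7mer-A1 listed at e18.5, with a conservation score of 0.014. Other 3′UTR clusters of the gene, each listed in 1 library, had more reads in these libraries (81 at e18.5 and 123 at e12.5).

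The signal-transducing Smads had few recurring family sites. The Smad3 cluster with the highest mean RPM over the libraries lay in the CDS. It was listed in 4 libraries (172, 97, 11 and 40 reads from e12.5 to P7). A 6mer match of miR-24 was counted in it at e15.5 and e18.5, where miR-24 was abundant (ranks 90 and 93). At e12.5 and P7 miR-24 was not abundant (ranks 102 and 120), so the match was not tested there. At e18.5 a 3′UTR cluster of Smad3 with a miR-223 7mer-A1 (conservation score 0), listed in that library only, had 97 reads. A Smad2 CDS cluster was listed at every stage (35, 62, 9, 30 and 19 reads) without a match to an abundant family. Smad4 had a conserved miR-181 7mer-A1 in the CDS at e15.5 and P7 (28 and 60 reads), in a cluster listed at every stage. Smad5 had sites of 11 families, as many as Tgfbr1 and at the 95.6 percentile of genes, of which 8 were in the e12.5 library. A miR-122 7mer-m8 in the Smad5 5′UTR (conservation score 0.23) was listed at e12.5 and P7. The Smad5 3′UTR cluster with the highest mean RPM was listed at e15.5 only, with 237 reads and a 7mer-m8 of miR-103 and miR-107 (conservation score 0.009).

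**Figure D4:**
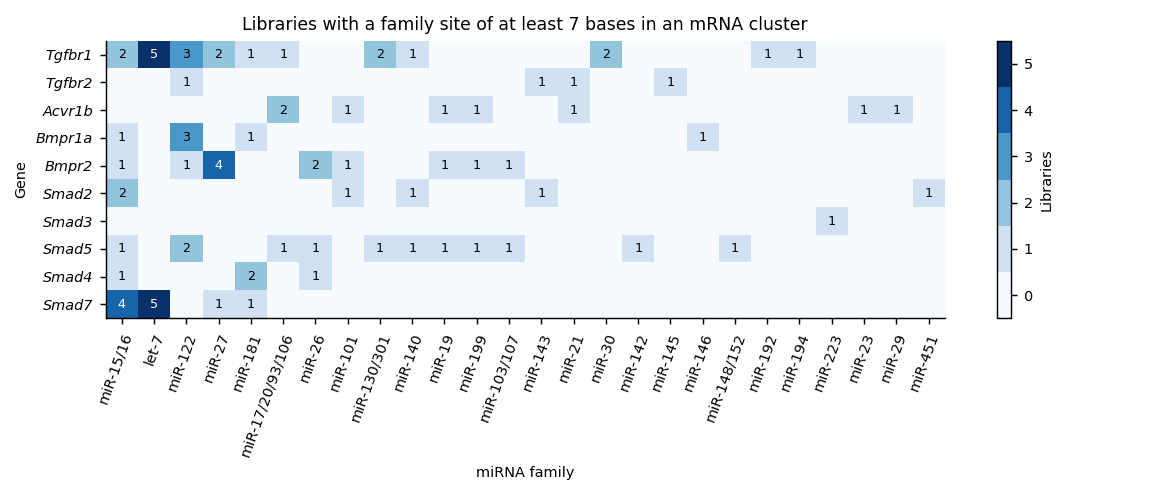
Number of libraries (0 to 5) in which each gene had a site of at least 7 bases for a miRNA family with a member among the 100 most abundant miRNAs of that library. Let-7 reaches 5 in Tgfbr1 and Smad7, miR-15/16 reaches 4 in Smad7 and miR-27 reaches 4 in Bmpr2.

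**Figure D5:**
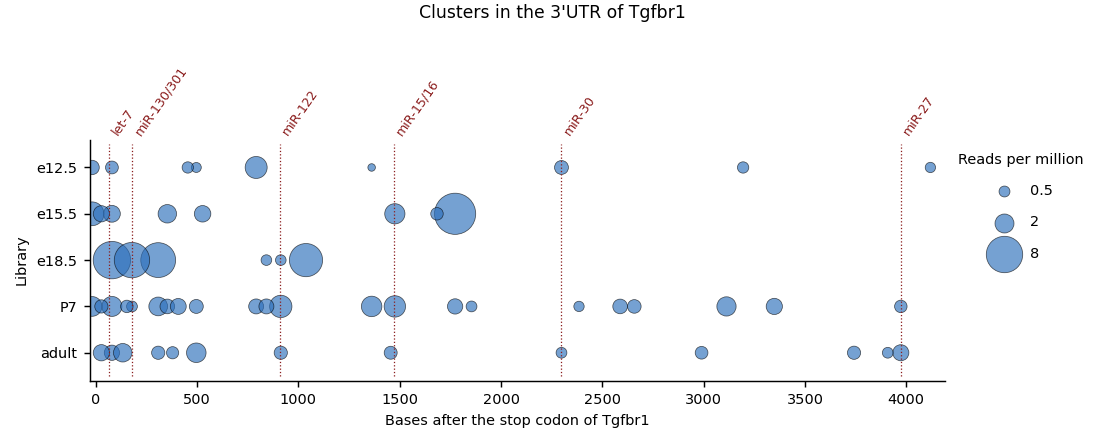
Clusters in the 3′UTR of Tgfbr1 by distance from the stop codon (bases) in the 5 libraries; the area of a point grows with its RPM. Dotted lines mark family sites of at least 7 bases listed in at least 2 libraries. The let-7 site, 66 bases after the stop codon, lies in a cluster at every stage.

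Of a wider list of 72 pathway genes, 69 were listed in some library and 34 in all 5. Between e12.5 and adult, 11 of the 47 compared were at least 2-fold higher and 15 lower, with a median log2 change of -0.37, against 21.4% higher and 47.4% lower among all genes, so the count of higher genes was near the background. Among the 3 receptors and co-receptors that were higher, the endothelial co-receptor Eng had 4.70 and 63.1 RPM, and the BMP co-receptor hemojuvelin (Hfe2) 0.780 and 30.2. Hamp, which encodes hepcidin, had 103.2 RPM in adult liver and none listed at e12.5. Of the inhibitors and modulators, 10 of 21 were lower, near the 47.4% of all genes, among them the Smad ubiquitin ligases Trim33 (21.8 and 3.90) and Smurf1 (5.68 and 1.29).
Most ligand transcripts compared across birth had more reads at P7. Of 11 ligands compared, 8 were at least 2-fold higher at P7 than at e18.5 and 1 was lower, with a median of 1.38, whereas over all genes 20.9% were higher. Bmp4 had 0.846 RPM (11 reads) at e18.5 and 28.1 at P7, the activin subunit Inhbb 0.461 (6 reads) and 8.42, and Gdf2, the circulating BMP9, 3.38 and 14.8. Bmp2 and Tgfb3, also called higher, had 6 and 7 reads at e18.5, near the limit of 5 for listing. Tgfb1 was the ligand that was lower (21.1 and 10.3). No other list or scaling is given here for the ligands. Summed endothelial and mesenchymal marker reads were higher at P7 as well (52.7 and 197 RPM for the first, 80.2 and 169 for the second), and their part in the result was not tested.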

How the data were processed

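Ago HITS-CLIP tables of mouse liver, 1 sample per stage, were used. The authors used the FASTX-Toolkit to clean the reads, and aligned these by Bowtie against mm10 and miRBase precursors (the versions of both tools are not given in the sources used here, and the labels also name mm9). Clusters of reads, their genes and regions and the miRNA seed matches in them are the authors' calls. The deposited read column is a signal, taken here as a cluster's peak read number, not scaled to library size. The deposited conservation and free energy values are each a score, whose methods are not stated. Coordinates match GRCm38 and are given from 1.

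The 10 genes, the pathway and cell marker lists and the miRNA families were chosen with earlier results of these data known. The embryonic tables hold 2 lists each. Overlapping clusters of both were counted once, and reads were added. A gene's reads are the sum over its mRNA clusters, divided by the summed cluster reads of the table. A difference of at least 2-fold was called, with exact conditional binomial intervals. No test between stages was run, since each stage has 1 library. The number in each interaction name was taken as the reads of the miRNA. Clusters of different libraries were joined into loci where their listed sites overlapped on a strand. Named clusters were, for each gene, the highest 3′UTR cluster, a higher CDS cluster, and clusters in at least 3 libraries. Sites named there matched let-7 or the families of miR-15, miR-17, miR-18, miR-19, miR-21, miR-22, miR-23, miR-24, miR-25, miR-26, miR-27, miR-29, miR-30, miR-99, miR-101, miR-103, miR-122, miR-126, miR-130, miR-136, miR-140, miR-142, miR-143, miR-144, miR-145, miR-146, miR-148, miR-181, miR-182, miR-192, miR-194, miR-199, miR-200, miR-203, miR-221, miR-223 or miR-451. Lengths and distances from the stop codon are from GENCODE. Of 995 miRNAs in the tables, 846 had a RefSeq sequence by name. No sequence of chromosome 18, which holds Smad2, Smad4 and Smad7, is given. The 2-fold rule and intervals were tested on simulated data. Python 3.11.15, pandas 2.3.3, numpy 2.4.6, scipy 1.17.1, matplotlib 3.10.9 and samtools 1.23.1 were used. Alternatives were other scalings, read minimums, regions, site types, lists and folds, single-gene clusters, and, chosen after seeing the data, leaving out each gene's highest cluster or adding clusters listed as intergenic in its 3′UTR.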

Additional observations from a re-analysis of the deposited data

Results flagged for a closer look

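Smad3 had 52 clusters in introns at e12.5, data that the comparisons above do not use, against 1, 3, 5 and 2 in the later libraries in order of age. The clusters at e12.5 spanned 97.8 kb of the gene and had 6 to 212 reads each. Of 11193 genes with intron clusters in that library, 84 had as many or more. Introns held 27.4% of all clusters at e12.5 and 19.1% to 22.7% in the other libraries. Of the clusters in the table, 15 were in the first list and 38 in the second.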

How the results depend on the processing

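No paired analysis was possible because each stage has 1 library. Counts below are of the 10 genes, or of the number compared where that is given, with the share of all genes in parentheses. Genes higher in adult than e12.5 numbered 0, and 3 with library totals in place of cluster reads (25.1%), centring on the median of all genes (32.5%), scaling to mRNA cluster reads (31.5%) or a 1.5-fold rule (26.4%). They numbered 2 with the second list (22.4%), Bmpr1a and Smad7. They numbered 1 of 8 compared with 3′UTR clusters (17.4%), and 1 with CDS clusters (25.9%) or without each gene's highest cluster. The 6 genes lower in adult liver became 4 with centring (31.6%), mRNA scaling (32.8%) or CDS clusters (41.3%), and 5 with a 3-fold rule (36.6%). They became 4 of 8 compared with 3′UTR clusters (52.6%), where Smad2 and Smad3 had no value. With clusters of at least 50 reads none of the 6 had a value, so the 0 of 4 compared there (43.1%) says nothing about their calls. Centring ended the calls of Acvr1b (-0.87) and Tgfbr2 (-0.65), and CDS clusters those of Acvr1b (-0.85) and Smad4 (-0.46). The log2 changes of these 6 were below 0 in each alternative that gave a value, at -5.86 to -3.88 for Smad3, -3.82 to -2.26 for Smad2, -5.81 to -0.46 for Smad4, -4.24 to -1.86 for Smad5, -2.33 to -0.85 for Acvr1b and -2.03 to -0.65 for Tgfbr2. From e18.5 to P7, the 1 gene higher became 3 with library totals (27.7%) or mRNA scaling (29.3%), and 3 of 9 compared with the second list (23.6%). It became 2 with centring (27.5%), sites of at least 7 bases (23.2%) or a 1.5-fold rule (26.8%), and 2 of 9 compared with 3′UTR clusters (22.1%). It became 5 with CDS clusters (23.3%), and 0 of 5 compared with at least 50 reads (7.09%) or of 9 with the first list (10.004%), where Smad5, the gene called, had no value. The 4 genes lower became 2 with CDS clusters (35.8%), and 1 with library totals (24.7%), centring (25.02%), mRNA scaling (23.0%), the second list (22.0%), a 3-fold rule (22.5%) or without the highest cluster. Smad5 ranged from 0.46, with the second list and no longer called, to 4.19, with at least 10 reads. Changes called at 2-fold from e18.5 to P7 turned with CDS clusters for Smad3 (1.52) and Smad4 (1.26), with the second list for Acvr1b (0.10) and Smad3 (0.24), and without its highest cluster for Smad4 (0.97). Genes listed in all 5 libraries numbered 3 with at least 50 reads (13.5%) and 1 with the first list (18.3%), and only the latter is a share of the 10 below that of all genes. The 3′UTR share was 47.1% at e12.5 and 37.5% in adult with at least 50 reads, and 75% at e15.5 with the first list (4 clusters). The share of 3′UTR clusters with an abundant miRNA was 31.9%, 25%, 22.4% and 41.7% at e12.5, e15.5, P7 and adult with the 50 most abundant miRNAs, and 34.8%, 25.4% and 38.9% at e12.5, P7 and adult with sites of at least 7 bases. Single-gene changes moved beyond counting error without turning in 113 cases, and in 24 cases a change under 2-fold took the other sign. From e18.5 to P7 this was so for Tgfbr1 and Bmpr2 (6 alternatives each, up to 1.958 and 1.64), Smad2 (3, up to 0.36), Bmpr1a (2, down to -1.02) and Smad7 (1, -0.53), and from e12.5 to adult for Tgfbr1 and Bmpr2 (2 each, down to -0.38 and -0.67), Bmpr1a (1, -0.42) and Smad7 (1, -0.32). The alternatives without the highest cluster and with intergenic clusters were chosen after seeing the data, and the latter changed no count of calls. Selections by reads, region, site type or list keep fewer clusters or reads, while scalings and fold rules do not. The cause of the shifts was not tested. Genes with few reads, such as Smad2 and Smad3 in adult liver (19 and 11), limit what the depth can show.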
